A study of Mus musculus with 6 samples.

Results

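The genes described here are 32 genes of cranial sensory neurons and of the neural crest glia and pigment cell precursors that accompany them, of 18194 genes with a probe set of their own on the array. They were chosen by name as 8 neurogenic transcription factors, 14 genes of differentiated neurons and 10 genes of glia or melanoblasts, and for each the brightest of its probe sets was used. Expression was measured in mandibular arches, the embryonic tissue of the lower jaw, of C57BL/6 mouse embryos at E10.5. There were 3 arrays labelled Tbx1-/-, homozygous for loss of a T-box transcription factor of pharyngeal development, and 3 arrays labelled Tbx1+/+. Tissue from 3 embryos per genotype was pooled, and whether the arrays of a genotype shared 1 pool is not clear from the labels, so the p-values here speak only to variation among these arrays, which may be technical. Which part of Tbx1 is disrupted, and how, the labels do not say.

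Most sensory neurons of the lower jaw lie in the trigeminal ganglion, whose neurons arise from both placodes and neural crest. Basic helix-loop-helix factors such as Neurog1 start their programme, other factors such as Neurod1 and Pou4f1 follow, and cytoskeletal and growth cone genes mark the differentiated cell. Neural crest cells that do not become neurons give rise, among other fates, to Schwann cell precursors that travel along nerves and to melanoblasts, both of which depend early on Sox10. The cell bodies of the trigeminal neurons lie outside the arch, while their axons and the crest cells on them enter it.

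Several defining markers of these cells were dim. Of the 32 genes, 27 passed a filter of a log2 value above 4 on 3 or more arrays and were tested, and 5 did not. Neurog2, Nhlh1, Tlx3 and Dct stayed below 4 on all 6 arrays, and Cdh19 exceeded it on 1. Neurog2 helps to specify cranial sensory neurons, Nhlh1 is a helix-loop-helix factor of newly formed neurons, Tlx3 is a homeobox factor of sensory neurons, Dct is a melanin synthesis enzyme of melanoblasts, and Cdh19 is a cadherin of Schwann cell precursors. Sox10, the crest factor, and Tubb3, a neuronal tubulin, passed the filter. On the brightest set Sox10 lay between 5.51 and 5.86 (log2) on all arrays, and Tubb3 between 6.02 and 6.64. Array medians over all probe sets were 6.08 to 6.15, so Sox10 lay below the median of each array. The other sets of Sox10 read 4.65 to 5.08 and 3.76 to 5.53. The filter left out 3 of 8 neurogenic factors, 0 of 14 differentiated neuron genes and 2 of 10 glia or melanoblast genes. In tissue RNA of this kind, fewer cells of a type and less RNA per cell cannot be told apart.

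**Figure D1:**
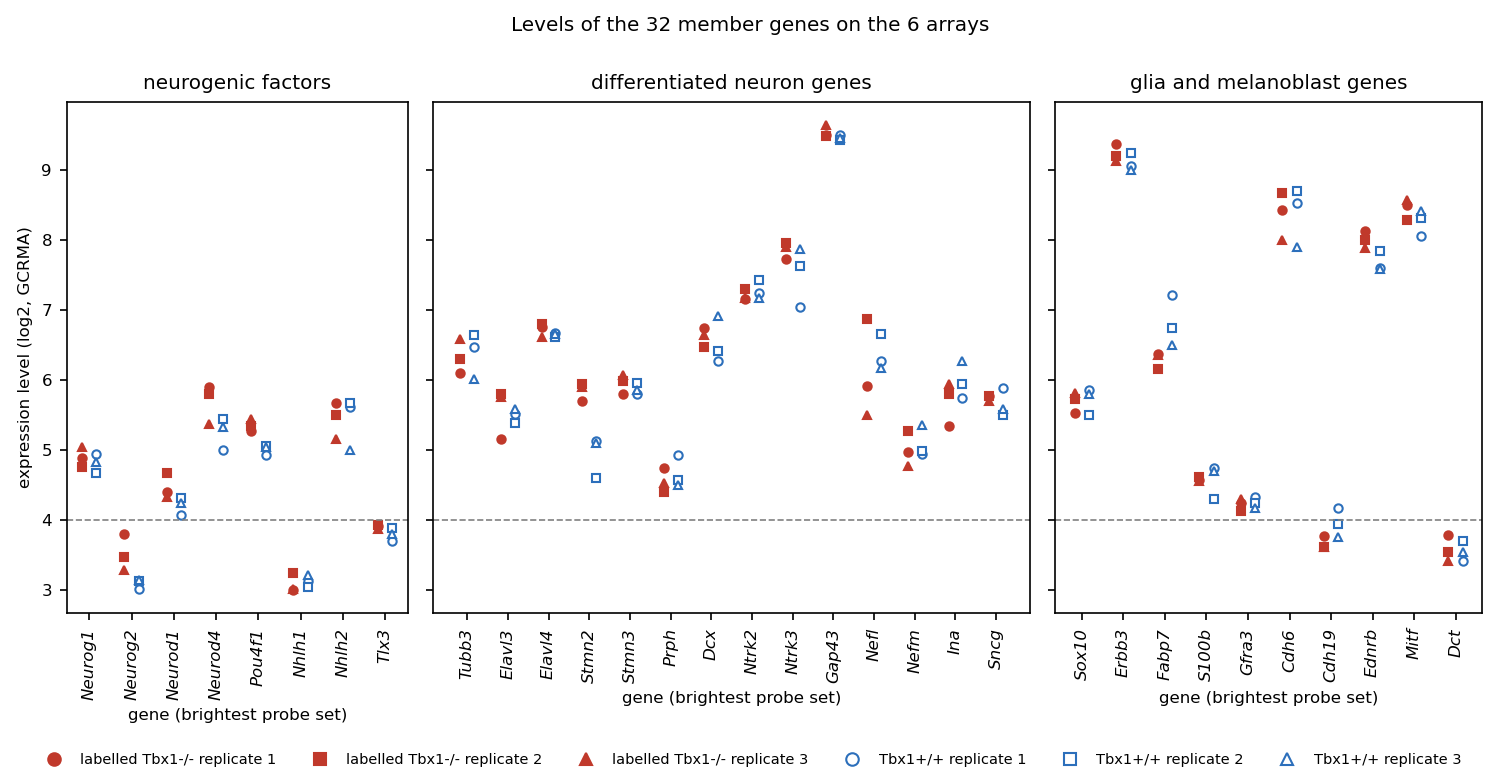
Expression level (log2, GCRMA) of the brightest probe set of each of the 32 genes, by class, on the 3 arrays labelled Tbx1-/- (filled, left of each pair) and the 3 Tbx1+/+ arrays (open, right); the dashed line marks 4, the level of the filter. Stmn2, Pou4f1, Neurod1, Neurog2 and Ednrb have all filled points above the open ones, Fabp7 has them below, and Neurog2, Nhlh1, Tlx3 and Dct stay under the line.

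Across the arrays, Tbx1 itself was not lower where the label says null: its probe set read 7.59, 7.50 and 7.30 (log2) on the labelled-null arrays and 6.93, 7.31 and 6.92 on the wild-type arrays. It cannot check the labels without knowledge of the disrupted part, and the directions below follow the labels. Myf5, a muscle determination factor, read 4.71 to 5.91 on the labelled-null arrays and 7.51 to 7.75 on the wild-type arrays (log2 change -2.33, SE 0.27, limma adjusted p = 0.0493). Labelled-null replicate 3 stood apart: Prl7a1, a placental prolactin family gene, read 13.28 on it against 4.76 or below on the other 5 arrays. On it 249 tested genes exceeded their mean on the other 5 arrays by over 1 (log2), against 6 to 32 genes on each other array. Genes below that mean by over 1 numbered 90 on labelled-null replicate 1, against 8 to 36 on each other array. None of the 27 tested members passed either limit on any array (0 of 27 above and 0 of 27 below).

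No member passed the test across all genes. At an adjusted p under 0.05 in limma, 0 of 27 tested members were called, beside 0.0373% of 16074 genes (0.0124% higher and 0.0249% lower), and the smallest adjusted p was 0.34, for Stmn2. At an unadjusted p under 0.05 in limma there were 5, which is 18.5% of those tested beside 2.68% of all genes. Of these, 4 were higher on the labelled-null arrays, beside 1.47% of all genes, and 1 was lower, beside 1.2%. The groups did not overlap for 5 members, also 18.5%, beside 6.43% of all genes, with 4 higher, beside 3.17%, and 1 lower, beside 3.25%. With 1 array left out, 2 to 5 members had an unadjusted p under 0.05 in limma. The number was 2 without wild-type replicate 1, and 3 when either labelled-null replicate 1 or labelled-null replicate 2 was omitted. The median log2 change was 0.07 over the 27 members and -0.01 over all genes tested, and for 26 of the 27 the 95% limma interval, which is not adjusted for the number of genes, stayed within a change of 1 on the log2 scale, a 2-fold difference, in both directions; the exception was Stmn2.

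**Figure D2:**
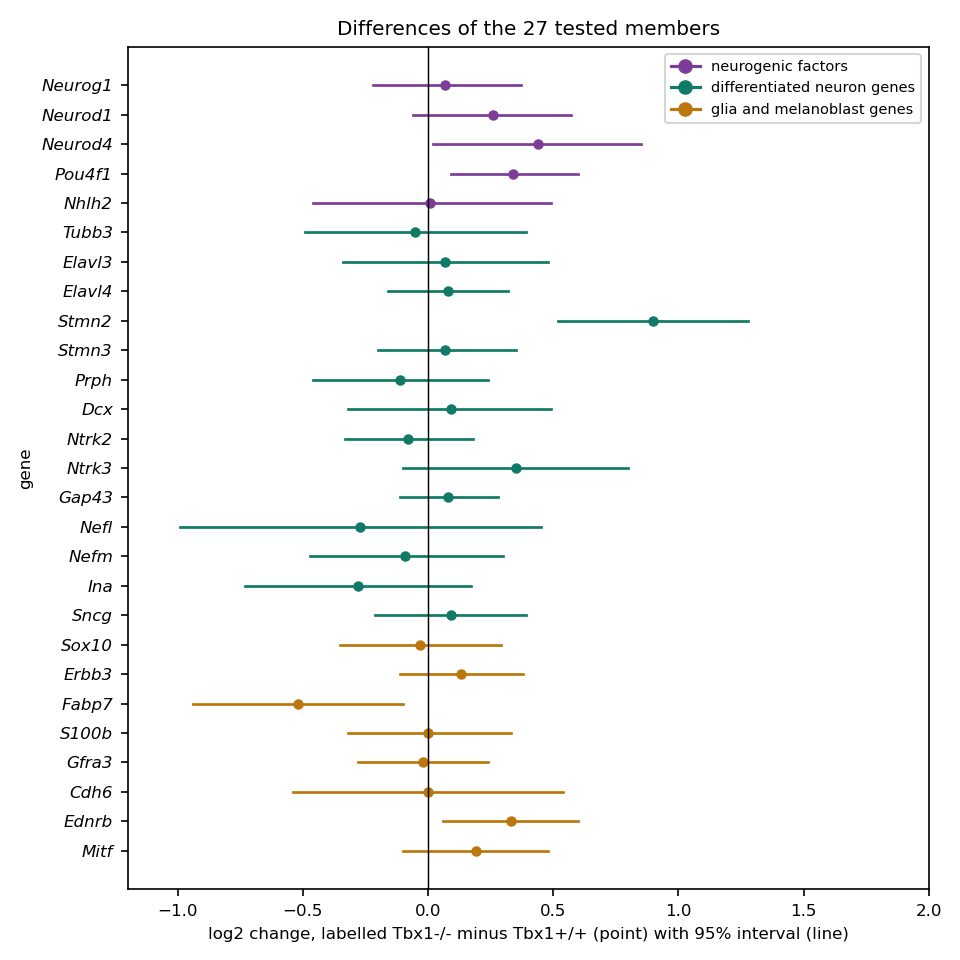
Log2 change of each of the 27 tested members, labelled Tbx1-/- minus Tbx1+/+, as a point with its 95% limma interval as a line, coloured by class. The interval lies above 0 for Neurod4, Pou4f1, Stmn2 and Ednrb, below 0 for Fabp7 (-0.94 to -0.10), and spans 0 for the others.

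Among the neurogenic factors, all 5 tested genes had higher means on the labelled-null arrays, beside 7598 of all 16074 genes tested. The median log2 change of the 5 was 0.26. At an unadjusted p under 0.05 in limma there were 2, both higher, beside 1.47% of all genes in that direction, and 2 had groups that did not overlap, both higher, beside 3.17%. Pou4f1, a POU-domain factor of sensory neurons, read 5.28, 5.34 and 5.44 (log2) on the labelled-null arrays and 4.93, 5.06 and 5.05 on the wild-type arrays. All 3 labelled-null values lay above all wild-type values. The change was 0.34 (SE 0.11), larger than the SD of either genotype (0.08 and 0.07, n = 3 each), with an adjusted p of 1.00 in limma (unadjusted 0.0144).

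Neurod4, a helix-loop-helix factor downstream of the neurogenins, read 5.91, 5.80 and 5.37 on the labelled-null arrays and 5.0, 5.45 and 5.33 on the wild-type arrays. Labelled-null replicate 3 fell inside the wild-type range, and the change was 0.44 (SE 0.18, limma adjusted p = 1.00, unadjusted 0.0405). Neurod1, which drives neuronal differentiation, read 4.40, 4.68 and 4.33 on the labelled-null arrays and 4.08, 4.32 and 4.25 on the wild-type arrays. Those groups did not overlap, with 4.33 and 4.32 as the nearest values, and the change was 0.26 (SE 0.14, limma adjusted p = 1.00), at levels close to 4.

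Neurog1, which is required for trigeminal neurons in mice, read 4.89, 4.76 and 5.05 on the labelled-null arrays and 4.95, 4.68 and 4.83 on the wild-type arrays, a change of 0.07 with an interval of -0.22 to 0.37. Nhlh2, a relative of Nhlh1, differed by 0.01 with an interval of -0.46 to 0.49. In Nhlh2 the low arrays were replicate 3 of both genotypes, at 5.16 on the labelled-null and 5.0 on the wild-type array, against 5.50 or above on the other arrays. Of the genes too dim to test, Neurog2 read 3.81, 3.47 and 3.29 on the labelled-null arrays and 3.02, 3.13 and 3.15 on the wild-type arrays, without overlap but wholly below 4, and was not tested. Tlx3 averaged 3.91 on the labelled-null and 3.80 on the wild-type arrays, and Nhlh1 averaged 3.08 and 3.13 on them. With these 3 genes included the class median was 0.18.

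Among the genes of differentiated neurons, all 14 were tested, 8 had higher and 6 lower means on the labelled-null arrays, and the median log2 change was 0.07. At an unadjusted p under 0.05 in limma there was 1, Stmn2, or 7.14% of the 14 beside 2.68% of all genes. It was also the only 1 of the 14 whose groups did not overlap, again 7.14%, beside 6.43% of all genes. In 10 of the 14, or 71.4%, the change was smaller than 0.2 in either direction, beside 87.9% of all genes. Stmn2, a stathmin that regulates microtubules in growing axons, read 5.71, 5.95 and 5.90 on the labelled-null arrays and 5.13, 4.60 and 5.11 on the wild-type arrays. All labelled-null values were higher, with means of 5.85 ± 0.13 on the labelled-null and 4.95 ± 0.30 on the wild-type arrays (SD, n = 3 each), and the change was 0.90 (SE 0.17), or 1.87-fold, with an interval of 0.52 to 1.28 and an adjusted p of 0.34 in limma. With 1 array left out it lay between 0.73, without wild-type replicate 2, and 0.99, and it was 0.88 without labelled-null replicate 3.

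The other genes of the class had smaller differences, though their distance from that of Stmn2 was not tested. Gap43, a growth cone protein, read 9.51, 9.49 and 9.65 on the labelled-null arrays and 9.51, 9.43 and 9.46 on the wild-type arrays, a change of 0.08 with an interval of -0.11 to 0.28. Elavl4, an RNA-binding protein of postmitotic neurons, varied by 0.18 over the 6 arrays, the narrowest range of the 27, and differed by 0.08 (interval -0.16 to 0.32). Stmn3, a neuronal relative of Stmn2, differed by 0.07 (interval -0.20 to 0.35) on a set whose probes can match more than 1 transcript. Its other set differed by -0.14.

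Tubb3 read 6.10, 6.30 and 6.59 on the labelled-null arrays and 6.48, 6.64 and 6.02 on the wild-type arrays. The groups overlapped throughout, with a change of -0.05 and an interval of -0.49 to 0.39. Dcx, a microtubule protein of migrating neurons, differed by 0.09 and Elavl3, another neuronal RNA-binding protein, by 0.07. Sncg, a synuclein of peripheral neurons, differed by 0.09 and Prph, the intermediate filament peripherin, by -0.11. All of these intervals spanned 0.

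The neurofilament and internexin genes had lower means on the labelled-null arrays, none past the threshold. Nefl, the light neurofilament chain, read 5.92, 6.88 and 5.50 on the labelled-null arrays and 6.28, 6.66 and 6.18 on the wild-type arrays. It had the widest range of the members, 1.37, with both its highest and its lowest value on labelled-null arrays, and its interval ran from -0.99 to 0.45. Nefm, the medium chain, differed by -0.09, and Ina, the neuronal filament alpha-internexin, by -0.28 (SE 0.20, limma adjusted p = 1.00). Ina read 5.34, 5.81 and 5.95 on the labelled-null arrays and 5.74, 5.94 and 6.27 on the wild-type arrays, and the groups overlapped.

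Of the neurotrophin receptors, Ntrk3, the receptor of neurotrophin-3, read 7.73, 7.96 and 7.90 on the labelled-null arrays and 7.05, 7.63 and 7.87 on the wild-type arrays. Wild-type replicate 1 was the low array, and the change of 0.35 (SE 0.20, limma adjusted p = 1.00) was 0.12 without it. With the replicate number as a block its unadjusted p in limma was 0.0419, against 0.115 without the block, and its adjusted p was 1.00 in both. Ntrk2, the receptor of brain-derived neurotrophic factor, differed by -0.08 with an interval of -0.33 to 0.18.

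Among the genes of glia and melanoblasts, 8 were tested, 4 had higher and 4 lower means, and the median log2 change was 0.00. In limma 1 of the 8, Ednrb, was higher with an unadjusted p under 0.05, beside 1.47% of all genes, and 1, Fabp7, was lower, beside 1.2%. These 2 were also the genes of the class whose groups did not overlap, beside 3.17% of all genes higher and 3.25% lower. Fabp7, a fatty acid-binding protein of glial precursors, read 6.38, 6.16 and 6.36 on the labelled-null arrays and 7.22, 6.75 and 6.50 on the wild-type arrays. All labelled-null values were lower, with 6.38 and 6.50 as the nearest, and the change was -0.52 (SE 0.18, limma adjusted p = 1.00, unadjusted 0.0210). It was -0.32 without wild-type replicate 1, the highest array. Fabp7 had the only member interval wholly below 0.

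Ednrb, the endothelin receptor B of crest and melanoblasts, read 8.13, 8.01 and 7.89 on the labelled-null arrays and 7.60, 7.85 and 7.59 on the wild-type arrays. The groups did not overlap, with 7.89 and 7.85 as the nearest values, and the change was 0.33 (SE 0.12, limma adjusted p = 1.00, unadjusted 0.0215). Mitf, the melanocyte master regulator, which other cells express in other isoforms, read 8.51, 8.29 and 8.57 on the labelled-null arrays and 8.06, 8.32 and 8.42 on the wild-type arrays. Its groups overlapped and its change was 0.19 with an interval of -0.10 to 0.48, while the pigment enzyme gene Dct averaged 3.58 on the labelled-null and 3.56 on the wild-type arrays, below the filter.

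Sox10 read 5.53, 5.73 and 5.82 on the labelled-null arrays and 5.86, 5.51 and 5.81 on the wild-type arrays, a change of -0.03 with an interval of -0.35 to 0.29. Erbb3, the neuregulin receptor on which Schwann cell precursors depend and which epithelia also express, differed by 0.13 (interval -0.11 to 0.38). S100b, a glial calcium-binding protein, differed by 0.00 (interval -0.32 to 0.33), and Gfra3, the artemin receptor, by -0.02 (interval -0.28 to 0.24), both at levels below 5. With 3 arrays a genotype, differences inside these intervals were not excluded.

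Cdh6, a cadherin of migrating crest, read 8.44, 8.68 and 8.01 on the labelled-null arrays and 8.53, 8.71 and 7.90 on the wild-type arrays. Replicate 3 was lowest and replicate 2 highest in both genotypes, and arrays of the same number differed by 0.11 or less, against a range of 0.81 over all 6. Its change was 0.00, and its interval of -0.54 to 0.54 was the widest of the glia class. Cdh19 averaged 3.67 on the labelled-null and 3.96 on the wild-type arrays.

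Promoter sequence is shown for the members at an unadjusted p under 0.05 in limma that have an entry in the RefSeq promoter table for GRCm38.p6, which holds 250 bases before and 50 after each annotated start. Of the 5 genes 4 have one, as have 23 of all 32 members. The 4 lie at chr10:130280089-130280388 on the minus strand for Neurod4 (the downstream of its 2 annotated starts), chr14:104467950-104468249 on the minus strand for Pou4f1, chr10:57784673-57784972 on the plus strand for Fabp7 and chr14:103843652-103843951 on the minus strand for Ednrb. Each is written from 5′ to 3′ on the strand of its gene. Capitals mark matches to the E-boxes CAGATG and CAGCTG, letters that neurogenic helix-loop-helix factors are known to bind, and to ACAAAG and ACAATG, letters that SOX factors are known to bind, each searched on both strands.
Neurod4: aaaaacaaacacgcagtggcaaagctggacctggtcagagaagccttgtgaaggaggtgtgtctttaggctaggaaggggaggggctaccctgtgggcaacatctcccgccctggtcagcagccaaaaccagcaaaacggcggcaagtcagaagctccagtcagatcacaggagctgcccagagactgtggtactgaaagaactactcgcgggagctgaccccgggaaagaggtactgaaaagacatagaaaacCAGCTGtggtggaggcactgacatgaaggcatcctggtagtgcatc
Pou4f1: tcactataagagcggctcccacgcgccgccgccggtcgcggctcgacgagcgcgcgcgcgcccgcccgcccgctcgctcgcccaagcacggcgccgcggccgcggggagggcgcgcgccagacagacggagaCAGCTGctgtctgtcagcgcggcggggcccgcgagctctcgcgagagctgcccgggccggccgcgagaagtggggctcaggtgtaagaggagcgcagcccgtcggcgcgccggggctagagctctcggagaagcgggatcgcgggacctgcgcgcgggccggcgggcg
Fabp7: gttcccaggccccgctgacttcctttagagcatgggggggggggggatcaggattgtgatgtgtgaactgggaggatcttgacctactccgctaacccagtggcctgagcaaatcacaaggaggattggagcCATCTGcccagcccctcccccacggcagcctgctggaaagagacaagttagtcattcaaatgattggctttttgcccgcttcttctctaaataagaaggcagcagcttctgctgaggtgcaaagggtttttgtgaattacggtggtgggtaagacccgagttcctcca
Ednrb: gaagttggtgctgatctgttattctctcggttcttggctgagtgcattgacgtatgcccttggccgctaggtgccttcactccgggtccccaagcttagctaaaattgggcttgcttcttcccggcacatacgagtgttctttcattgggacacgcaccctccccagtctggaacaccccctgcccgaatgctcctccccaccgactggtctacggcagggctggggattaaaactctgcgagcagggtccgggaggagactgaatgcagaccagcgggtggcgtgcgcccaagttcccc
Neurod4 and Pou4f1 each held 1 CAGCTG, Fabp7 held 1 CAGATG on the reverse strand, and Ednrb held none of the 4 motifs, so no matches overlapped. Of the 2 annotated starts of Neurod4, the entry of the upstream one, which overlaps the window shown, held none of the 4 motifs.

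Over all 30 promoter entries of the 23 members, some of which overlap, CAGATG was found in 9, or 30.0%, beside 17.2% of the 32851 entries of the table. CAGCTG was found in 7, or 23.3%, beside 16.3%. ACAAAG was found in 4, or 13.3%, beside 18.7%, and ACAATG in 5, or 16.7%, beside 12.6%. These are descriptions of the letters in the windows and say nothing of binding.

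Of the 32 members 20 have more than 1 probe set, which allows the direction to be read again. Of 30 further sets that exceeded 4 on at least 3 arrays, 16 had the same sign as the brightest set of their gene. For Pou4f1 both sets differed in the same direction, and its second set read 5.10, 4.98 and 5.09 on the labelled-null arrays and 4.36, 4.40 and 4.83 on the wild-type arrays, again without overlap, a difference of 0.52. The second set of Stmn2 read 4.86, 4.86 and 5.16 on the labelled-null arrays and 4.44, 5.05 and 4.72 on the wild-type arrays, overlapping, with a difference of 0.22 against 0.90 on the brightest.

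The second set of Neurod4 differed by -0.06, with 3.88 on labelled-null replicate 3, and its brightest set is of the kind whose probes can match more than 1 transcript. For Ednrb, where the brightest set differed by 0.33, the others differed by 0.09 and 0.04. The second set of Mitf differed by -0.14. Fabp7 has 1 set, so its difference could not be read again. For Ntrk3 the 5 other sets above the filter differed by -0.37 to 0.11.

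The other sets of Sox10 differed by -0.18 and -0.75. The larger value came from a set that read 3.76, 4.26 and 4.05 on the labelled-null arrays and 4.28, 5.53 and 4.50 on the wild-type arrays, without overlap. Wild-type replicate 2 stood out in this set at 5.53, and the other arrays read 4.50 or below. Single arrays also stood out within a set. The second set of Ina read 4.05 on labelled-null replicate 1 and 5.69 or above on the other 5 arrays, and all 3 Ina sets were lowest on that array. The third set of Elavl4 was likewise lowest on labelled-null replicate 1, at 5.08 against 5.78 or above elsewhere, which the brightest set, at 6.76, did not share. On labelled-null replicate 3 both sets of Nefl were lowest, at 5.50 and 4.19.

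**Figure D3:**
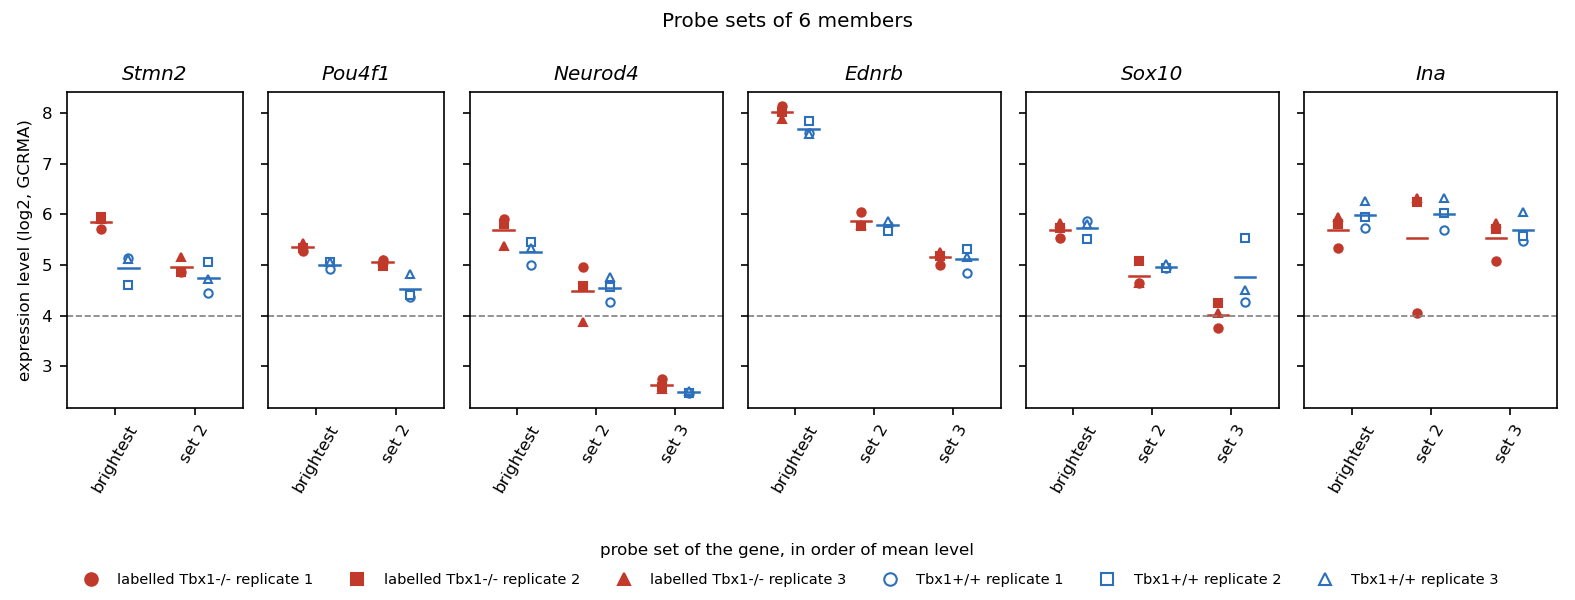
Expression level (log2, GCRMA) on every probe set of 6 members, in order of mean level, on the arrays labelled Tbx1-/- (filled, left) and the Tbx1+/+ arrays (open, right), with group means as short lines and the filter level of 4 dashed. Both sets of Pou4f1 separate the genotypes, only the brightest set of Stmn2 and of Ednrb does, and the second set of Ina is low, at 4.05, on labelled-null replicate 1.

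Set side by side, the 3 classes had median log2 changes of 0.26 for neurogenic factors, 0.07 for differentiated neuron genes and 0.00 for glia and melanoblast genes, beside -0.01 over all genes. The differences between classes were not tested. Taking each gene relative to its mean over the arrays, the median deviation of the neurogenic factors was 0.10, 0.16 and -0.01 on the labelled-null arrays and -0.25, -0.03 and -0.14 on the wild-type arrays, so wild-type replicate 1 lay lowest, and -0.01 and -0.03 were the nearest values of the genotypes. For the differentiated neuron genes it was -0.04, 0.07 and 0.09 on the labelled-null arrays and -0.02, -0.06 and -0.05 on the wild-type arrays, which overlapped. For the glia and melanoblast genes it was 0.04, 0.03 and 0.01 on the labelled-null arrays and 0.12, 0.00 and -0.06 on the wild-type arrays, also overlapping.

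When all probe sets of each gene were averaged instead, the median of the neurogenic factors was 0.11 over the 4 genes then tested and that of the neuron genes -0.03. Without labelled-null replicate 2 it was 0.15 for the neurogenic factors. Counted by array, 3 of the 5 tested neurogenic factors were lowest on wild-type replicate 1, and all 5 were highest on a labelled-null array. Of all 16074 genes tested, 3554 were lowest on wild-type replicate 1. Those highest on labelled-null replicates 1, 2 and 3 numbered 2852, 1437 and 3082.

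**Figure D4:**
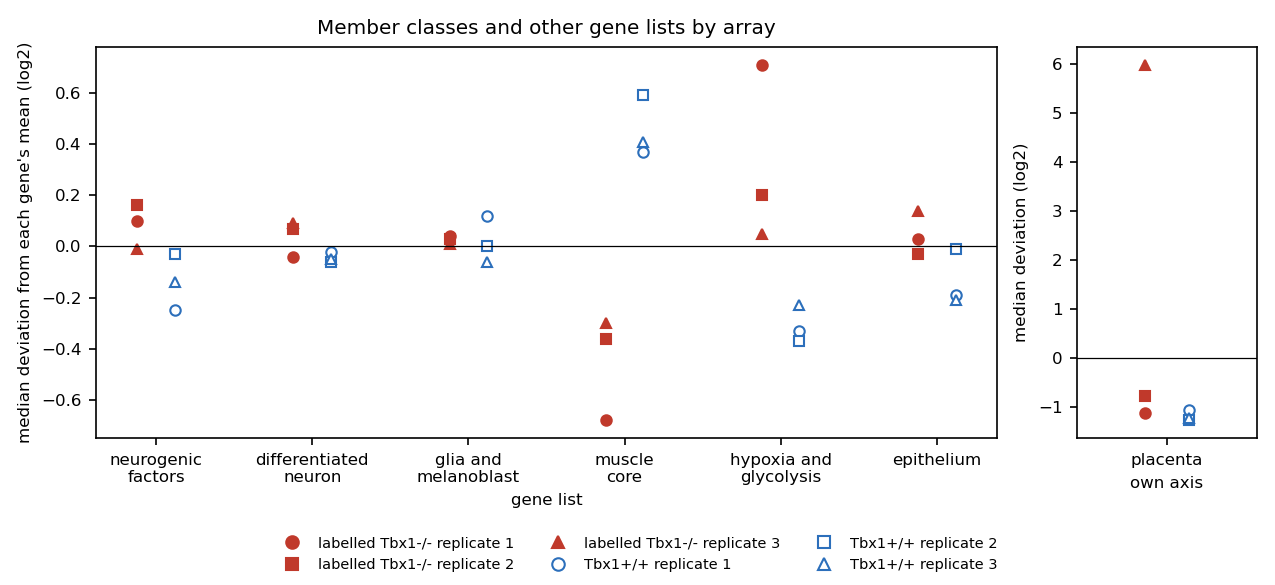
Median over the tested genes of each list of the deviation from the gene's mean over the 6 arrays (log2), for each array labelled Tbx1-/- (filled, left) and each Tbx1+/+ array (open, right); the placenta list has its own axis. The 3 member classes stay between -0.25 and 0.16, while the muscle core list lies between -0.68 and -0.30 on the labelled-null arrays and between 0.37 and 0.59 on the wild-type arrays, and the placenta list reads 5.99 on labelled-null replicate 3.

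Further lists of the same pathways held no called gene. Of 37 further tested genes of sensory neurons, 0 were called in limma and 0 had an unadjusted p under 0.05, with 20 higher and 17 lower means and a median log2 change of 0.03. The groups did not overlap for 2, both lower, or 5.41% beside 6.43% of all genes. With the replicate number as a block, 2 had an unadjusted p under 0.05 in limma, both lower, namely Chl1 (0.0393) and Ebf1 (0.0388), and 0 were called. The 4 with the smallest p included Runx3, a factor of proprioceptive neurons, at -0.25 (SE 0.11), Snap25, a synaptic vesicle fusion protein, at 0.35 (SE 0.17), and Chl1, a neural adhesion molecule, at -0.39 (SE 0.19), each with a limma adjusted p of 1.00. Of 26 further genes of crest glia and melanoblasts, 0 were called and 0 had an unadjusted p under 0.05 in limma, with a median of 0.01. Tfap2b, a crest transcription factor, differed by -0.25 (SE 0.13), and was the only 1 of the 26 with an unadjusted p under 0.05 in limma under the replicate block (0.0275, adjusted 1.00). Sox8, a relative of Sox10, differed by 0.29 (SE 0.17).

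Notch signalling restrains neurogenesis, and its ligand Dll1 is induced by neurogenins. Of 27 genes of this circuit 0 were called in limma. An unadjusted p under 0.05 in limma was found for 2, or 7.41%, both higher, beside 1.47% of all genes in that direction. There were 20 higher and 7 lower means, with a median of 0.09. The groups did not overlap for 3, or 11.1% beside 6.43% of all genes, with Cbfa2t3 and Gadd45g higher and Dll1 lower. Dll1 read 5.49, 5.62 and 5.35 on the labelled-null arrays and 5.88, 5.63 and 5.82 on the wild-type arrays, a change of -0.29 (SE 0.13, limma adjusted p = 1.00). The groups did not overlap, with 5.62 and 5.63 as the nearest values. Cbfa2t3, a corepressor induced by neurogenins in other species, differed by 0.27 (SE 0.11), Id1, an inhibitor of helix-loop-helix factors, by 0.32 (SE 0.14), and Gadd45g, a growth arrest gene of newborn neurons, by 0.43 (SE 0.20; 0.18 without labelled-null replicate 3). Of 13 ligands for these cells, such as Edn3, which binds Ednrb, 0 had an unadjusted p under 0.05 in limma, and all lay within 0.2.

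Markers of other tissues were set beside these genes, since a dissected arch can include neighbouring tissue. Of 20 neural tube markers with a probe set, 8 exceeded 4 on all 6 arrays and 8 on none. Those above 4 throughout included Pax6 (5.07 to 5.56), Nkx6-1 (5.52 to 5.83), Lhx1 (5.09 to 5.69), Sox3 (5.01 to 5.16), Lhx3 (4.43 to 4.77) and Chat (4.68 to 5.22), with ranges over all arrays. Those below it throughout included Olig2, Olig3, Nkx2-2, Mnx1 and En1, which lay below 3. The summed level of the 12 tested markers was 8.77 to 8.87 (log2) on the labelled-null arrays and 8.65 to 8.77 on the wild-type arrays. Otx2 is the brightest of them and weighs most in that sum. It read 7.51, 6.91 and 6.98 on the labelled-null arrays and 6.41, 6.31 and 6.85 on the wild-type arrays. The median log2 change of the 12 was -0.05, with 5 higher and 7 lower means. The part of these markers in the values of the neuron genes was not tested.

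Of the 12 tested neural tube markers 0 were called in limma. The groups did not overlap for 3, 1 higher and 2 lower, or 25.0% beside 6.43% of all genes. These counts take in En2, whose limit is given below. Otx2, which the oral ectoderm also expresses, differed by 0.61 (SE 0.20, limma adjusted p = 1.00, unadjusted 0.0152). Zic2, a zinc finger factor of the dorsal neural tube, differed by -0.41 (SE 0.16, limma adjusted p = 1.00, unadjusted 0.0321). Neither had groups that overlapped. En2, a midbrain and hindbrain factor, read 3.45 to 3.57 on the labelled-null arrays and 4.02 to 4.23 on the wild-type arrays. It exceeded 4 on wild-type arrays alone and so passed the filter only through the genotype where it is high, and no test is given for it.

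Of 14 arch mesenchyme markers 0 were called in limma. At an unadjusted p under 0.05 in limma 1 was higher, or 7.14% beside 1.47% of all genes in that direction. Their summed level was 15.17 to 15.24 on the labelled-null and 15.17 to 15.25 on the wild-type arrays. Epithelium markers, relevant to Erbb3, had a summed level of 14.23 to 15.04 on the labelled-null and 14.04 to 14.19 on the wild-type arrays. Of the 10, 2 were higher without overlap, beside 3.17% of all genes. The 15.04 was that of labelled-null replicate 3, and the other labelled-null arrays were at 14.30 and 14.23. Those 2 genes, the keratins Krt18 and Krt19, differed by 0.80 and 1.13 with all arrays and by 0.31 and 0.45 without that array. Endothelium markers, relevant to Ednrb, had a summed level of 11.45 to 11.69 on the labelled-null and 11.32 to 11.43 on the wild-type arrays. Of these 10, 1 was higher without overlap, again beside 3.17% of all genes. The part of both lists in the values of Erbb3 and Ednrb was not tested.

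Yolk sac markers were lower on the labelled-null arrays in 7 of 8 means, with a median log2 change of -0.39. The groups did not overlap for 4, all lower, or 50% beside 6.43% of all genes. Their summed level was 8.76 to 9.36 on the labelled-null arrays and 9.40 to 10.54 on the wild-type arrays, lowest on labelled-null replicate 1 and highest on wild-type replicate 2. Ttr, the transport protein transthyretin, differed by -1.78 (SE 0.49, limma adjusted p = 1.00, and 0.0361 with the replicate block), and Afp, alpha-fetoprotein, by -1.47 (SE 0.47, limma adjusted p = 1.00, and 0.0833 with the block). Ttr was thus called under the block alone. The part of these markers in the members' differences was not tested.

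Of 17 hypoxia and glycolysis genes 13, or 76.5%, had all labelled-null arrays above the wild-type arrays, beside 3.17% of all genes. Their summed level was 15.99 to 16.25 on the labelled-null and 15.62 to 15.76 on the wild-type arrays, highest on labelled-null replicate 1. In limma 0 were called, and 2 with the replicate block, both higher. Of 10 muscle core genes 9 had all labelled-null arrays lower, beside 3.25% of all genes. Their summed level was 8.60 to 8.98 on the labelled-null and 10.03 to 10.32 on the wild-type arrays. In limma 2 were called, and 3 with the replicate block, all lower. Only 8 of the 10 exceeded 4 on all 6 arrays, so the rest may have passed the filter through the wild-type arrays alone. The counts for this list were taken over all 10, so they may include genes that the filter itself favoured in the lower direction. Both lists move with the same contrast as Stmn2, Pou4f1, Ednrb and Fabp7, and their part in those differences was not tested. Of 5 tested placenta markers 4 were highest on labelled-null replicate 3, with a summed level of 14.53 on it and 9.28 or below elsewhere. Without that array the changes were 0.88 for Stmn2, 0.30 for Pou4f1, 0.60 for Neurod4, 0.39 for Ednrb and -0.55 for Fabp7, the same direction in each. The part of the placenta markers in these differences was not tested.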

How the data were processed

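Per the labels' protocols, total RNA of mandibular arches was isolated on columns, amplified to biotin-labelled cDNA from 100 ng and hybridised to Affymetrix arrays. The authors deposited log2 expression values of probe sets, computed with GCRMA per the submitters' processing notes, in a version that the sources used here do not name. That the scale is log2 follows from the range of 1.95 to 15.11, and array medians were 6.08 to 6.15. GCRMA commonly makes the arrays' distributions alike and compresses differences near background.

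Of 45101 probe sets, 34958 named 1 gene in the platform annotation, 932 several and 9211 none; those naming 1 gene gave 18194 genes, of each of which the brightest set was used, and all 32 members matched the RefSeq gene table by gene ID. Genes above 4 (log2) on at least 3 arrays, 16074 in all, were fitted for genotype by limma 3.58.1 in R 4.3.3 (lmFit, then eBayes with trend), with Benjamini-Hochberg adjustment over all of them and a threshold of 0.05. The limma step was tested on simulated data. The members and all gene lists were chosen with earlier results of these data known. The rule for named genes took all members, up to 4 genes of each other list with the smallest p, Tbx1, and the extreme markers of an array that stands apart; the text prints part of them, and Ebf1 and the neural tube genes named for their level were chosen after their values were seen.

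No 2 arrays of a genotype were duplicates, the SD of their difference being 0.235 to 0.438. Arrays of the same replicate number deviated together (correlations 0.261, 0.13 and 0.135), so the numbers were treated as a possible pairing from the data; the labels do not say what a number shares. Alternatives were the filter, raising values under 4 to 4, the mean of probe sets, a further quantile normalization, centring, no intensity trend, array weights, the replicate block and leaving out each array. The number of arrays limits the precision.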

Additional observations from a re-analysis of the deposited data

How the results depend on the processing

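Under all alternatives run, 0 members passed the threshold. The count at an unadjusted p under 0.05 was 4 to 6 under the 8 settings that keep all arrays (6 with the replicate block, which changed no member's call; outside the members it added the calls given for hypoxia, muscle core and yolk sac genes), and 2 to 5 with 1 array left out. With the mean of probe sets the median was 0.11 for neurogenic factors and -0.03 for differentiated neuron genes. In that setting the change was 0.56 for Stmn2, 0.43 for Pou4f1 and -0.52 for Fabp7. It was smaller than on the brightest set for Neurod4 (0.18, SE 0.17), Ednrb (0.15, SE 0.09), Ntrk3 (0.02) and Mitf (0.02). For Sox10 it was -0.32 (SE 0.13), against -0.03 on the brightest set. With 1 array left out, the medians ran from 0.15 to 0.31 for neurogenic factors, 0.01 to 0.06 for neuron genes and 0.01 to 0.08 for glia and melanoblast genes.

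Of the single members, 203 of 214 values under settings that keep all arrays and 138 of 162 with 1 array left out kept their sign; the rest were small changes with intervals spanning 0. The sign turned with arrays centred on their medians for Nhlh2 (-0.01) and S100b (-0.02), and with array weights for Tubb3 (0.02), Dcx (-0.09), Nefl (0.18) and Cdh6 (0.28). It turned with the mean of probe sets for Elavl3 (-0.02), Elavl4 (-0.04), Stmn3 (-0.04), Prph (0.07) and Cdh6 (0.02). With 1 array left out the ranges of members whose sign turned were 0.00 to 0.14 for Neurog1, -0.20 to 0.15 for Nhlh2, -0.23 to 0.08 for Tubb3, -0.04 to 0.28 for Elavl3, -0.20 to 0.02 for Prph, -0.05 to 0.28 for Dcx, -0.66 to 0.03 for Nefl, -0.22 to 0.04 for Nefm, -0.14 to 0.05 for Sox10, -0.14 to 0.08 for S100b, -0.06 to 0.03 for Gfra3 and -0.24 to 0.18 for Cdh6. The cause was not tested. Signal over background limits genes near 4 (Neurod1, S100b, Gfra3), and differences there are a weak basis for a size.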
